A study of Homo sapiens with 12 samples.

Results

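The vehicle tumours are the 3 control libraries, titled 1-1, 1-3 and 2-1, among the 12 libraries of the series. They were chosen by label alone, and no library of a drug-treated tumour enters any value below. Each tumour was a xenograft of MDA-MB-231, a human triple-negative breast cancer line grown here in the mouse, in the right inguinal mammary fat pad. Per the labels, the cells were injected in 50 µl of Matrigel, groups held 10 mice, and dosing started once tumours measured 100 mm3. The control mice were injected intraperitoneally on 5 days of the week with the solvent alone, a mixture of DMSO at 4%, PEG 300 at 30% and Tween 80 at 5%. The label for treatment of these samples reads "None", so they had solvent and injections but no inhibitor. The strain, sex and age of the mice, the length of dosing, and what the numbers 1-1, 1-3 and 2-1 stand for are not given in the sources used here. The study asked how inhibitors of p38 and EZH2 change such tumours, and the 3 libraries are its untreated baseline. Values below are listed in the order 1-1, 1-3, 2-1 unless a sentence says otherwise.

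Triple-negative tumours are those without oestrogen receptor, progesterone receptor and amplified HER2. MDA-MB-231 is a line of the mesenchymal kind: its cells are spindle-shaped, carry vimentin filaments in place of much of the keratin network, and depend on an active RAS-ERK pathway. In a xenograft the tumour cells are human while vessels, fibroblasts and blood cells belong to the mouse, so a count on human genes reads mainly the tumour cells.

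The libraries held 2484579, 3429634 and 4360021 gene counts, so 1-1 was the shallowest and 2-1 the deepest. A count was found for 16690, 16991 and 17182 of 25369 gene symbols. Thinned to the total of 1-1, the expected numbers were 16690, 16418 and 16224, so the order of the libraries turned round once depth was equal. Levels are CPM, the library-scaled count of edgeR after normalization by the trimmed mean of M values. A gene at 0 counts in all 3 libraries can be present at up to 0.292 CPM, the level of 3 counts among 10274234, where counting error alone is considered. With 3 libraries of 1 group there is no contrast to test, so the text gives values, their spread, and how often a pair of libraries differed by at least 2-fold. Whether the libraries came from separate mice is not stated beyond the tumour numbers.

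Of 25369 symbols, 6445 (25.4%) had 0 counts in all 3 libraries, and these are called silent below. A mean of at least 1 CPM was reached by 13867 symbols (54.7%), at least 10 CPM by 8949 (35.3%) and at least 100 CPM by 2162 (8.52%). A count in every library was found for 15124 symbols (59.6%). The 97 genes at 1000 CPM or more held 22.6% of all counts, and the 2065 genes between 100 and 1000 CPM held 49.1%. Protein-coding genes took 93.5%, 93.8% and 94.6% of counts, and long noncoding RNAs 5.29%, 5.0% and 4.37%. MicroRNA gene symbols, which stand for the precursors, were mostly empty, with 1483 of 1614 silent.

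**Figure D1:**
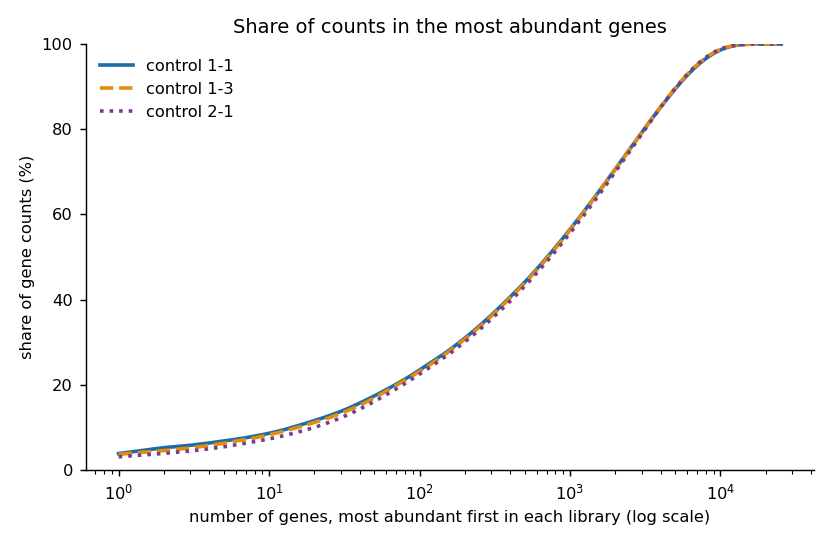
Cumulative share of gene counts (vertical axis, %) against the number of genes, ranked from the most abundant in each library (horizontal axis, log scale), with 1 line per vehicle tumour. The lines lie close together: the 100 most abundant genes held 23.5%, 23.2% and 22.5% of counts.

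The shape of the distribution was much alike in the 3 tumours. The 10 most abundant genes held 8.64%, 8.29% and 7.33% of counts, and 707, 716 and 743 genes were needed to reach 50% of counts. Library 2-1 was the least concentrated on each of these measures. The plot of the cumulative share shows how small these differences are.

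MALAT1, a long noncoding RNA kept in nuclear speckles, was the most abundant gene in every library. It stood at 37973, 36837 and 32201 CPM, a mean of 35669.9 ± 3058 (SD, n = 3), and took 3.88% (95% Wilson interval 3.86% to 3.91%), 3.72% and 3.12% of counts. FN1, which encodes the matrix protein fibronectin and is a classic mesenchymal gene, came second at 13575, 8643 and 4634 CPM. The fibronectin values were spread far more widely than those of MALAT1, with 2.93-fold between 1-1 and 2-1. VIM, the vimentin gene, stood at 4542, 5162 and 5909 CPM, with 2-1 the highest. TIMP3, an inhibitor of matrix metalloproteinases that binds to the matrix, stood at 3372, 5981 and 5291 CPM, with 1-1 apart from the other two.

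S100A6, a calcium-binding protein common in mesenchymal lines, stood at 3172, 3669 and 4819.9 CPM. MT2A, a metallothionein that binds zinc and copper, stood at 3582, 3152 and 3094 CPM. ACTG1 (cytoplasmic actin), HSP90AA1 (the inducible HSP90 chaperone), APLP2 (a relative of the amyloid precursor protein), ENO1 (the glycolytic enolase) and CD63 (a tetraspanin of late endosomes) had means between 2305 and 3399 CPM. Over the libraries these 5 genes had an SD of 0.05 (APLP2) to 0.21 (ENO1) on the log2 scale.

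Ribosomal protein genes took up the largest share of any family examined. The 86 symbols of the family held 9.22%, 9.2% and 9.57% of counts, and 8 of the 20 most abundant genes and 37 of the 100 most abundant belonged to it. RPS29, a small-subunit protein, led with 5417, 5963 and 8294 CPM, and RPL37A, of the large subunit, stood at 3963, 3852 and 3500.1 CPM. RPS29 was highest in 2-1 while RPL37A was highest in 1-1. Ribosomal protein genes have many near-identical processed pseudogenes, and how the authors' counting shared reads among copies is not stated, so the level of a single member is uncertain. RPL21 had 1 count in each library and RPL17 had 4, 2 and 10 counts, although both proteins are standard parts of the ribosome.

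Many mRNAs of the translation machinery begin with a C followed by a run of pyrimidines, the 5′ terminal oligopyrimidine tract, which couples their translation to mTOR signalling. The starts of some of the most abundant of these genes are shown because the tract is frequent, though not universal, in this large block of counts. Sequences come from RefSeq on GRCh38.p14, read 5′ to 3′ on the transcript's strand, from 10 bases before the annotated start to 20 bases into the transcript, with the longest run of C and T that touches the 10 bases on either side of the start in capitals where it has at least 6 bases.
RPL37A: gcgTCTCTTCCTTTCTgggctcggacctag
RPL27A: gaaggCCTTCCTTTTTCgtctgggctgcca
RPS12: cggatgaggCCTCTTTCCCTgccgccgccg
TPT1: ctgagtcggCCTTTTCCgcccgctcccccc
RPL31: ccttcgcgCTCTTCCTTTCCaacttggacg
RPS6: gaagttggCCCTCTTTTCCgtggcgcctcg
RPS29: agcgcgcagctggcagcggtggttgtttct
RPS4X: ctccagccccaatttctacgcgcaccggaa
The windows lie at chr2:216498834-216498863 (RPL37A), chr11:8682782-8682811 (RPL27A), chr6:132814559-132814588 (RPS12), chr13:45341164-45341193 (TPT1, minus strand), chr2:101002279-101002308 (RPL31), chr9:19380217-19380246 (RPS6, minus strand), chr14:49598691-49598720 (RPS29, minus strand) and chrX:72277229-72277258 (RPS4X, minus strand). RPS29 and RPS4X had no such run in the window of the annotated start.

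Of the 79 ribosomal protein genes with at least 10 CPM, 64 were matched to a RefSeq start table by symbol, with 80 annotated starts between them. A run of at least 6 pyrimidines within 10 bases of the start was found on the transcript's strand at 56 of the 80 starts (70.0%), against 22.2% of all 35116 starts in that table. TPT1, which encodes the translationally controlled tumour protein and is not itself a ribosomal protein, carried one too and stood at 3228, 2751 and 2498 CPM. A match describes the annotated sequence only, since the counts do not show where transcripts start.

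A comparison of levels between genes depends on transcript length, and the labels name both a SMARTer mRNA kit, which reads along transcripts, and QuantSeq, which reads their 3′ ends. Over 12576 protein-coding genes with at least 1 CPM, CPM and transcript length had a Spearman correlation of 0.04 across genes, given as a description. Divided by transcript length, 10 of the 20 most abundant genes stayed among the top 20 protein-coding genes, and 16 of those 20 were then ribosomal protein genes. VIM moved from rank 4 by CPM to rank 21 per length, and FN1, with its long mRNA, from rank 2 to rank 74. Which scale is right for these libraries was not tested, so the gene-to-gene order is given on both.

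The mesenchymal markers of the line were present in all 3 tumours, apart from THY1 in 2-1. Of 17 cytoskeletal and surface genes of mesenchymal breast lines, 15 had at least 10 CPM and 12 at least 100 CPM. The shares over all symbols were 35.3% and 8.52%. CAV1, the caveolin of membrane pits, stood at 1317, 1511 and 1642 CPM. MSN, the moesin that links actin to the membrane, stood at 709, 841 and 1223 CPM. CD44, the hyaluronan receptor used to mark stem-like breast cancer cells, was nearly constant at 335, 324 and 335 CPM. THY1, the single member of the list under 1 CPM, had 0.787, 0.289 and 0 CPM.

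The transcription factors that impose the mesenchymal state were present at unequal levels. ZEB1, a repressor of E-cadherin, stood at 177, 201 and 211 CPM, and SNAI2 (Slug) at 32.3, 25.7 and 36.9 CPM. TWIST1 stood at only 1.97, 2.02 and 4.02 CPM, and TWIST2 was silent. Among the products of the programme, TGFBI, a secreted matrix protein induced by TGF-beta, stood at 1196, 670.3 and 505 CPM, and SPARC, a collagen-binding glycoprotein, at 333, 323 and 305 CPM. SPARC and ZEB1 overlapped closely between tumours, while TGFBI in 1-1 lay 2.37-fold above 2-1.

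**Figure D2:**
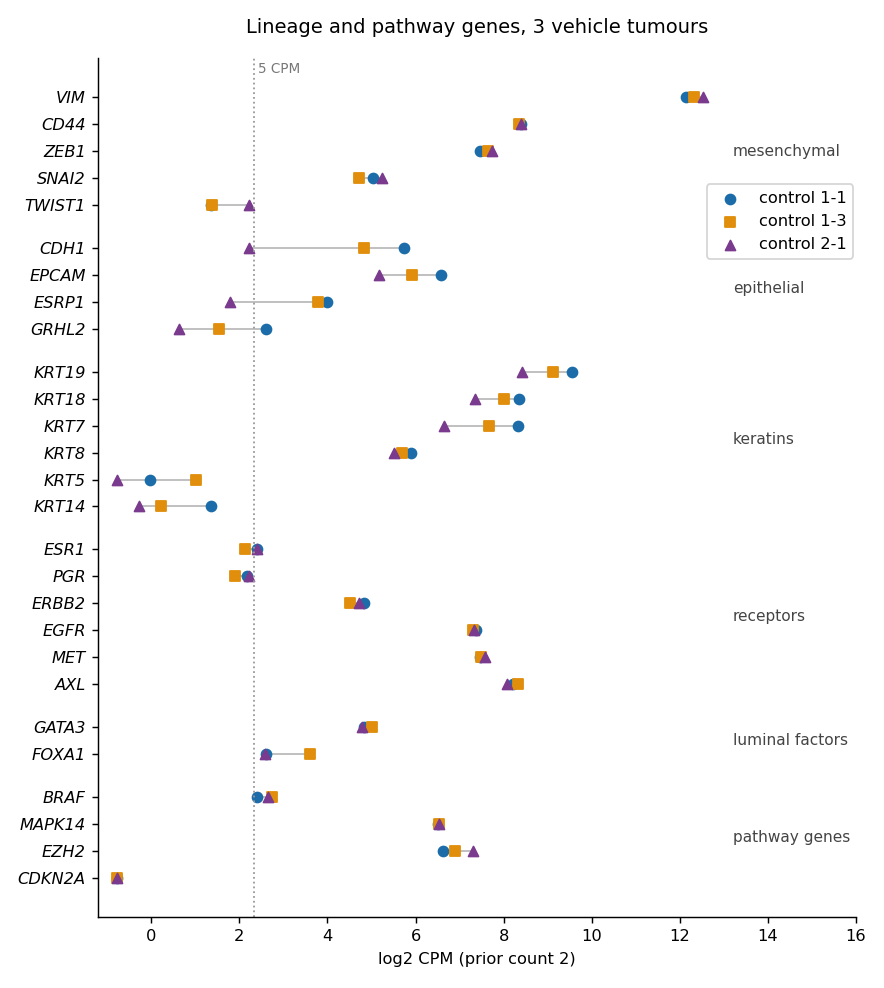
Level of 27 lineage and pathway genes in log2 CPM (horizontal axis, prior count of 2) with 1 symbol per vehicle tumour and a grey line over their range. VIM lies at the top of the scale and CDKN2A at its floor, and the widest range is that of CDH1, from 4.02 CPM in 2-1 to 52.3 CPM in 1-1.

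Genes of the oestrogen and progesterone receptors were low, as in the class of the line. ESR1, the oestrogen receptor, stood at 4.72, 3.76 and 4.73 CPM, and PGR, the progesterone receptor, at 3.94, 3.18 and 4.02 CPM. ERBB2, which encodes HER2, stood at 27.9, 22.2 and 25.6 CPM, the level of a gene present but not among the abundant ones. Of the luminal factors, GATA3 stood at 27.9, 31.8 and 27 CPM and FOXA1 at 5.51, 11.6 and 5.44 CPM. Of the 20 luminal and hormone-receptor genes none was silent, 18 had a mean of at least 1 CPM and 6 of at least 10 CPM. None reached 100 CPM. Of all symbols, 54.7%, 35.3% and 8.52% reached these levels in turn.

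Among receptor tyrosine kinases, AXL, a receptor for GAS6 that is typical of mesenchymal lines, stood at 298, 318 and 268 CPM, and DDR1, a collagen receptor, at 432, 267 and 166 CPM. AXL was the higher in 1-3 and 2-1 and DDR1 in 1-1. MET, the receptor for hepatocyte growth factor, stood at 177, 178 and 191 CPM, and EGFR at 167, 157 and 161 CPM. Both were steady, with an SD over the libraries of 7.94 CPM for MET and 4.69 CPM for EGFR (n = 3). FGFR1 stood at 159, 241 and 296 CPM, while FGFR4 and ROR2 were silent. Of the ligands of EGFR, EREG (epiregulin) stood at 66.5, 163 and 111 CPM and HBEGF at 55.1, 109.5 and 107.5 CPM, both lowest in 1-1.

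The RAS-ERK cascade relays growth factor signals, and all 15 genes listed had counts in every library. GRB2, the adaptor that joins receptors to RAS activation, stood at 98.4, 146 and 182.5 CPM, and SOS1, the exchange factor it recruits, at 105, 97.9 and 114 CPM. BRAF was low at 4.72, 6.07 and 5.68 CPM. Among the feedback genes that active ERK induces, the phosphatase DUSP4 stood at 1969, 2069 and 1874 CPM and DUSP6 at 676, 825 and 1675 CPM. DUSP4 hardly varied, whereas DUSP6 in 2-1 was 2.48-fold above 1-1 and 2.03-fold above 1-3.

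The proteins that the study's inhibitors act on had well-read genes at baseline. MAPK14, which encodes p38 alpha, varied little, at 90.1, 92.2 and 92.6 CPM. All 28 genes of the p38 pathway list had counts in every library. Downstream of p38, MAPKAPK2 (206, 158 and 134 CPM) and HSPB1 (160, 162 and 169 CPM) were among the most abundant members of the list. EZH2, the catalytic subunit of Polycomb repressive complex 2, which methylates lysine 27 of histone H3, stood at 98, 119 and 157 CPM. Its partner SUZ12 stood at 183, 195 and 218 CPM. All 14 genes of the complex and its cofactors reached 10 CPM, where the share over all symbols was 35.3%. The opposing demethylases were lower, with KDM6A at 24.8, 28.6 and 30.1 CPM and KDM6B at 13.4, 13 and 10.7 CPM. EZH2 was lowest in 1-1 and highest in 2-1, the same order as the cell-cycle genes below.

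CDKN2A, which encodes the inhibitors p16 and ARF, had 0 counts in all 3 libraries, and so had its neighbour CDKN2B. CDKN1A, the p21 gene, stood at 130, 138 and 86.6 CPM, and MDM2, a ubiquitin ligase, at 172, 166 and 225 CPM. Of the apoptosis genes, MCL1 led with 305, 334 and 435 CPM.

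Energy metabolism was marked by abundant glycolytic genes. Of 21 glycolysis genes, 15 reached 100 CPM, with ENO1, LDHA, PGK1 and GAPDH at the top. The share over all symbols was 8.52%. LDHA, which makes lactate, stood at 1835, 1978 and 2190 CPM, and PGK1 at 1979, 1866 and 1845 CPM. NDRG1, a gene induced by low oxygen, stood at 1946, 1773 and 1744 CPM. Glycolysis (1 of 19 tested genes past 2-fold between 1-1 and 2-1) and hypoxia (1 of 20) were as even as genes in general, of which 4.29% were at least 2-fold higher in 1-1 and 7.02% in 2-1.

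Surface antigens of the immune system differed in kind. Of 16 class I genes 6 reached 100 CPM. B2M, the light chain of class I, stood at 1513, 1759.7 and 2559.8 CPM, and HLA-B at 624, 487 and 562 CPM. Others were low, with TAP1, the peptide transporter, at 3.94, 4.91 and 4.26 CPM and HLA-G silent. Class II genes, which present peptides taken up from outside and are made by few epithelial cells, were lower but present. CD74, the invariant chain, stood at 115, 169.9 and 256 CPM and HLA-DRA at 40.1, 56.9 and 149.6 CPM. NT5E, the surface enzyme CD73 that makes adenosine, stood at 337, 416 and 1110.5 CPM, so that 2-1 was 3.29-fold above 1-1. Interferon alpha genes were silent in all 14 cases, as were IFNB1 and IFNL1. Interferon-induced genes were nonetheless present, 21 of 25 at 10 CPM or more, led by IFITM3 at 496, 536 and 369.8 CPM. Over all symbols, 35.3% reached a mean of 10 CPM and 8.52% a mean of 100 CPM.

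Marker lists of other cell types differed in how empty they were. Silent members numbered 7 of 9 for neutrophils, 6 of 13 for lymphocytes and 5 of 10 for erythroid cells. They numbered 2 of 15 for macrophages, 1 of 14 for endothelium and 0 of 11 for pericytes. Of all symbols 25.4% were silent, and of protein-coding symbols 16.3%. The neutrophil list had at most 1 count in a library, and S100A8 and S100A9 were among its silent members. The lymphocyte list took 0.00145%, 0.00175% and 0.00138% of counts, and CD3D, CD4 and NKG7 were silent. Of 15 macrophage genes 8 had counts in all 3 libraries, C1QA and C1QC were silent, and CD163 and TYROBP had counts in 2-1 only. CD68, a lysosomal protein not limited to macrophages, was the highest of that list at 9.05, 12.1 and 14.9 CPM. Of 14 endothelial genes 10 had counts in all 3 libraries, CLDN5 was silent, and ESAM (81.1, 178 and 163 CPM) and ROBO4 (55.5, 93.3 and 81.7 CPM) stood out. Pericyte genes took 0.0146%, 0.0101% and 0.00755% of counts, and 8 of the 11 had at least 1 CPM. The globins HBA1 and HBA2 were silent, while HBB had 1, 9 and 20 counts. Of 10 milk and secretory genes 6 were silent, LALBA, CSN2 and CSN3 among them. In bulk samples, fewer cells of a type and less RNA per cell cannot be told apart.

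Fibroblast markers did not behave as one. COL1A1, the main chain of type I collagen, stood at 519, 310.3 and 209.5 CPM and COL3A1 at 187, 120.2 and 142 CPM. DCN, DPT and THY1, which fibroblasts also make, each had at most 0.787 CPM in any library. PDGFRB, a receptor of fibroblasts and pericytes, stood at 63.8, 33.8 and 15.2 CPM. The 13 fibroblast markers together took 0.099%, 0.0561% and 0.0452% of counts, so their sum was highest in 1-1 and lowest in 2-1. All 6 tested members were higher in 1-1 than in 1-3, and 5 were higher in 1-1 than in 2-1. Between 1-3 and 2-1 they split evenly, 3 higher in each. Skeletal muscle genes were also highest in 1-1, with 0.024%, 0.00892% and 0.00782% of counts for 15 genes. Only 2 of the 15 reached a mean of 5 CPM. The Wilson intervals in 1-3 (0.00798% to 0.00998%) and 2-1 (0.00703% to 0.0087%) overlapped, so these libraries were not ranked. NEB, which encodes the giant filament protein nebulin, stood at 87, 16.5 and 12.8 CPM, and TNNI2, of fast muscle, had 17, 1 and 1 counts, while MYH7, the myosin of slow muscle, was silent. Removal of mouse reads is not described, and how much of these counts came from mouse cells was not tested.

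**Figure D3:**
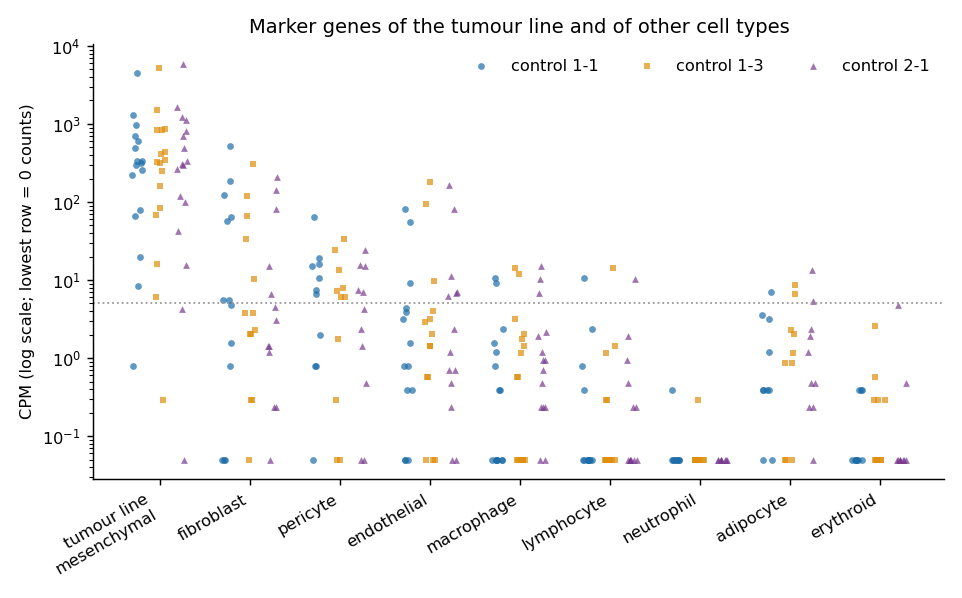
CPM of marker genes (vertical axis, log scale, genes with 0 counts in the lowest row) for the tumour line and 8 other cell types, with 1 symbol per gene and vehicle tumour and a dotted line at 5 CPM. The tumour line's markers lie mostly above 100 CPM, while each neutrophil and erythroid marker lies below 5 CPM in each library.

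Several families were silent in most of their members. Of 398 olfactory receptor genes 294 had 0 counts and 21 had a count in all 3 libraries. Silent too were 86 of 94 keratin-associated protein genes of hair, 43 of 50 defensins and 16 of 18 late cornified envelope genes of skin. The shares were 25.4% for all symbols and 16.3% for protein-coding symbols. Of 87 cancer-testis genes 59 were silent, and PAGE5 was among the few with a clear level, at 59.4, 22.5 and 63.9 CPM. Of 18 liver genes 6 were silent, APOB and TTR among them, and 7 had counts in all 3 libraries, led by CYP2E1 at 13, 7.22 and 11.1 CPM. Of 16 neuronal genes only 2 were silent, SLC17A6 and SLC17A7, and 9 had counts in all 3 libraries.

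Runs of adjacent silent genes were found in the order of RefSeq genes on GRCh38.p14. Among 18858 protein-coding genes placed, 3029 were silent, and 566 of these lay in 71 runs of at least 5. The longest run held 23 genes, from LCE3C to SPRR1B on chromosome 1, a cluster of skin barrier genes. On chromosome 9, the 10 genes from IFNA6 to DMRTA1 were silent, among them MTAP, CDKN2A and CDKN2B, next to another run of 10 interferon genes. The nearest genes around the runs had few counts too: KLHL9 and ELAVL2 each had 0, 2 and 0 counts, IZUMO3 none, and FOCAD 2, 11 and 8. Clear counts were found farther out, with 79, 68 and 136 for MLLT3 and 71, 102 and 148 for TUSC1. MTAP encodes an enzyme of adenine salvage that most cells express, and loss of the segment that holds it is a common event in cancer. The counts do not show whether the DNA is present. MTAP and these neighbours were looked up after the run was seen.

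The 3 libraries ranked genes alike, and single genes still differed. Over 10618 genes whose mean reached 5 CPM, the Spearman correlation of log2 CPM across genes was 0.967 for 1-1 with 1-3, 0.957 for 1-3 with 2-1 and 0.92 for 1-1 with 2-1. At least 2-fold differences were found for 212 genes (2.00%) higher in 1-1 than 1-3 and 152 (1.43%) higher in 1-3. Between 1-3 and 2-1 they numbered 177 (1.67%) higher in 1-3 and 398 (3.75%) higher in 2-1. Between 1-1 and 2-1 they numbered 455 (4.29%) higher in 1-1 and 745 (7.02%) higher in 2-1. In all, 1426 genes (13.4%) passed 2-fold between some pair of libraries. Tumours 1-1 and 2-1 were thus the most unlike pair, and 1-3 lay between them.

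This spread was larger than counting error. Among the 2162 genes with at least 100 CPM, the SD of the log2 difference between 2 libraries was 0.31 (1-1 and 1-3), 0.53 (1-1 and 2-1) and 0.37 (1-3 and 2-1), where counting alone gives 0.08 to 0.09. The biological coefficient of variation of edgeR over the 3 libraries was 0.239. The median SD of log2 CPM fell with level, from 0.36 for genes of 5 to 10 CPM to 0.13 for those of 1000 CPM or more. VEZF1, a zinc finger factor, was the steadiest gene of at least 100 CPM, at 192.1, 192.1 and 191.5 CPM. HNRNPH1, a splicing factor, followed at 522, 516 and 513 CPM.

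**Figure D4:**
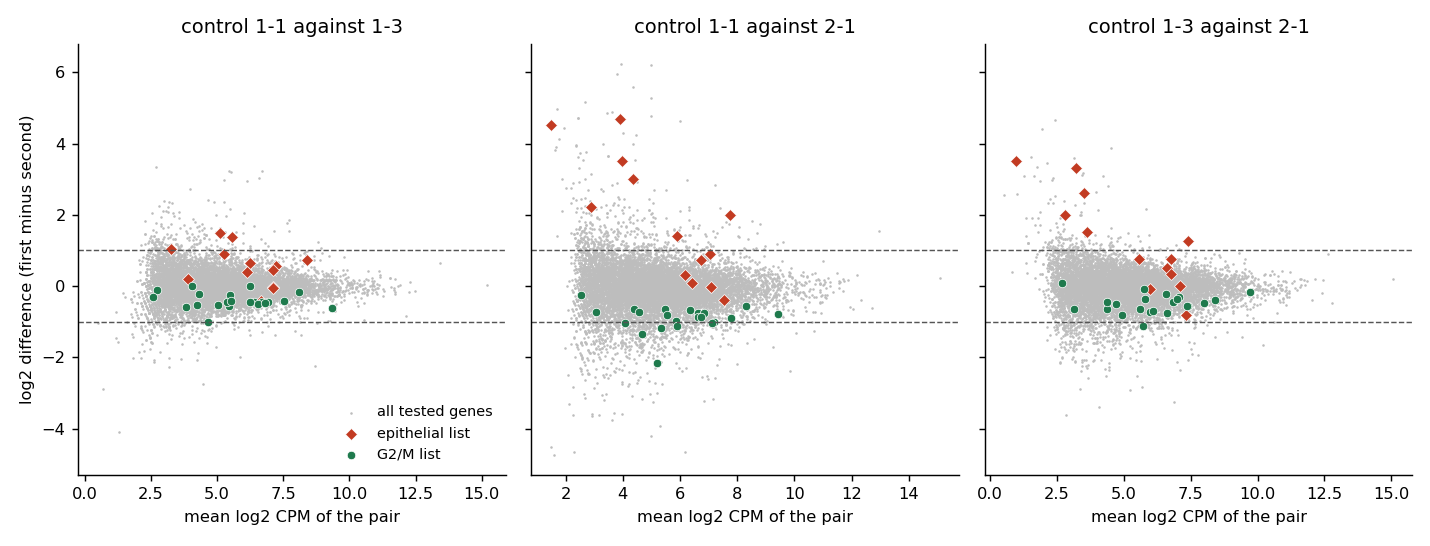
Difference in log2 CPM between 2 vehicle tumours (vertical axis, first minus second, dashed lines at 2-fold) against the mean log2 CPM of the pair (horizontal axis) for 10618 genes. Epithelial genes (red diamonds) lie mostly above and G2/M genes (green circles) below 0 in the middle panel, which compares 1-1 with 2-1.

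Epithelial genes differed between the tumours, mostly with 1-1 above 2-1. Of 13 tested epithelial genes 7 were at least 2-fold higher in 1-1 than in 2-1 and none was 2-fold lower, with a median log2 difference of 1.4, where the median of all genes was -0.07 and 4.29% of them were 2-fold higher in 1-1. CDH1, which encodes E-cadherin, the adhesion molecule of epithelia, stood at 52.3, 27.7 and 4.02 CPM. EPCAM, a surface glycoprotein of epithelia, stood at 95.2, 60.4 and 35.7 CPM. DSP, the desmoplakin that anchors keratin at desmosomes, stood at 432, 263 and 108 CPM. All 3 genes were highest in 1-1 and lowest in 2-1, with 1-3 between. TJP1, which encodes the tight-junction scaffold ZO-1, was an exception at 135, 139 and 138 CPM, and SPINT2, a protease inhibitor, was highest in 2-1 at 210 CPM. ESRP1, the epithelial splicing regulator, stood at 15.3, 13.3 and 2.84 CPM, and GRHL2 at 5.51, 2.31 and 0.947 CPM.

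Keratins, the intermediate filaments of epithelia, went with them. KRT19, KRT18, KRT7 and KRT8 belong to simple epithelia. KRT19 stood at 752, 554 and 343 CPM and KRT7 at 319, 202 and 99.9 CPM. KRT8 was the steadiest at 59, 51.4 and 45 CPM. Of 6 tested simple keratins, 3 were at least 2-fold higher in 1-1 than in 2-1 and none lower. The share higher over all tested genes was 4.29%. Basal genes showed a like pattern, 4 of 7 past 2-fold: KRT6A stood at 17.3, 16.8 and 0.237 CPM, while KRT5 and KRT14 had at most 1.97 CPM anywhere. MIR205HG, the host gene of a microRNA of epithelial and basal cells, had 95, 91 and 2 counts. CDH3, which encodes the placental cadherin of basal cells, stood at 75.6, 28.6 and 2.37 CPM.

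Matrix genes leaned the same way. Of 17 tested genes of laminins and other matrix proteins, 7 were at least 2-fold higher in 1-1 than in 2-1 and 1 was lower. Of 16 collagens 6 were higher and 2 lower. The shares over all tested genes were 4.29% higher and 7.02% lower. FN1 has been given above. COL6A1, of type VI collagen, stood at 1019.7, 868 and 452 CPM. COL13A1, a transmembrane collagen, went the other way at 157, 376 and 368 CPM. POSTN, which encodes periostin, stood at 57.9, 10.4 and 1.42 CPM, and MGP, the matrix Gla protein that blocks calcification, at 319, 33.8 and 12.3 CPM. MGP in 1-1 lay 9.3-fold above 1-3 and 24.8-fold above 2-1. The fibroblast markers, with 3 of 6 tested genes at least 2-fold higher in 1-1 than in 2-1, leaned the same way. They include collagen genes such as COL1A1, so they are not separate from the matrix genes. DCN, DPT and THY1 were near 0 in all 3 libraries, while 10 of the 13 fibroblast markers had a mean of at least 1 CPM. The part of other cells in the difference was not tested.

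Proliferation genes had the reverse order. All 22 tested G2/M genes were lower in 1-1 than in 2-1, 7 of them by at least 2-fold, with a median log2 difference of -0.84. In 21 of 22 the highest library was 2-1. Of all tested genes 42.5% were highest in 2-1, 31.6% in 1-1 and 25.9% in 1-3. MKI67, the gene of the proliferation antigen Ki-67, stood at 160, 216 and 301 CPM. TOP2A, the topoisomerase that untangles chromosomes, stood at 518, 789.9 and 895 CPM, and UBE2C, the ubiquitin-conjugating enzyme of the anaphase-promoting complex, at 102, 141 and 206 CPM. Of 19 S-phase genes, 7 were at least 2-fold lower in 1-1 than in 2-1 and none higher. The share lower over all tested genes was 7.02%. RRM1, a subunit of ribonucleotide reductase, stood at 241, 294 and 328 CPM. For G2/M genes the step from 1-1 to 1-3 (median -0.44) was about as large as that from 1-3 to 2-1 (median -0.49).

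Class II genes were highest in 2-1 in all 6 tested cases, 5 of them at least 2-fold above 1-1. Their median log2 difference of 1-1 minus 2-1 was -1.8. Over all tested genes, 42.5% were highest in 2-1 and 7.02% were at least 2-fold above 1-1 there. HLA-DRB1 stood at 24, 43 and 80 CPM and HLA-DPA1 at 5.12, 7.8 and 24.9 CPM. The macrophage list took 0.0027%, 0.00373% and 0.00399% of counts. Its Wilson interval in 1-3 (0.00314% to 0.00444%) overlapped those in 1-1 (0.00212% to 0.00342%) and 2-1 (0.00344% to 0.00463%). The list therefore ranked only 1-1 below 2-1, and 1-3 was not ranked. The lymphocyte list held 36, 60 and 60 counts, or 0.00145%, 0.00175% and 0.00138%. Its Wilson intervals in the 3 libraries all overlapped, so no order was read from it. MS4A1, a B-cell marker, had 2, 4 and 8 raw counts, and library depth rose in the same order. Of the 15 macrophage genes, C1QA and C1QC were at 0, while 8 had counts in all 3 libraries. The part of such cells in the class II difference was not tested.

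**Figure D5:**
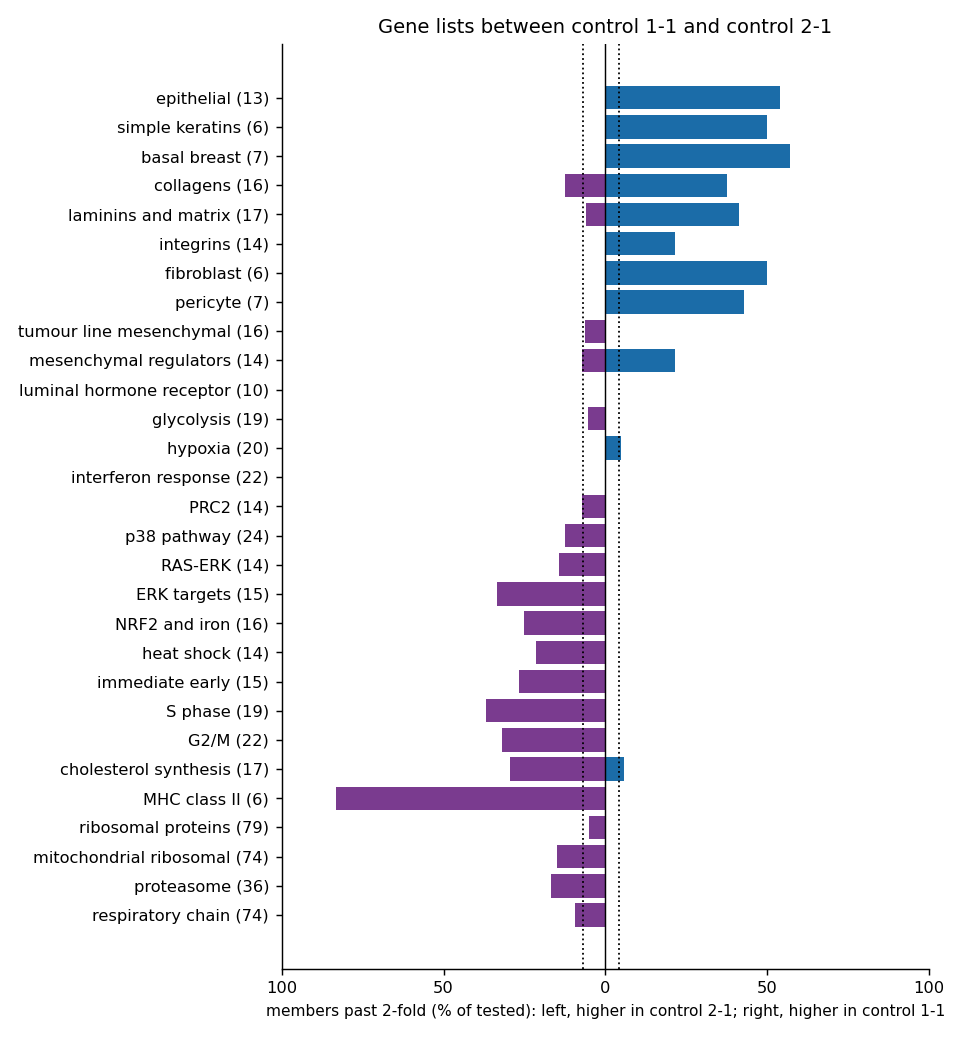
Share of tested list members (horizontal axis, %) that differed by at least 2-fold between control 1-1 and control 2-1, to the right where 1-1 was higher and to the left where 2-1 was higher, with the number of tested genes in brackets. Dotted lines give the shares over all 10618 genes, 4.29% and 7.02%, and the longest bar is that of class II genes.

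Other lists held genes that were lower in 1-1 than in 2-1. Of 17 tested genes of cholesterol synthesis, 5 were at least 2-fold lower in 1-1 than in 2-1 and 1 was higher. CYP51A1, an enzyme of the pathway, stood at 69.7, 88.1 and 118 CPM, and SREBF2, its transcription factor, at 48.8, 80 and 56.6 CPM. The list was low in 1-1 against both others (median log2 differences of -0.53 and -0.75) and level between 1-3 and 2-1 (-0.05). Of 15 ERK target genes 5, and of 15 immediate early genes 4, were at least 2-fold lower in 1-1 than in 2-1, with none higher. Of 16 genes of the antioxidant NRF2 response and iron, 4 were lower, among them TXN (thioredoxin) at 72.8, 112 and 339.9 CPM. Proteasome subunits (6 of 36) and mitochondrial ribosomal proteins (11 of 74) were lower by 2-fold somewhat more often than the 7.02% of all genes, while subunits of the respiratory chain (7 of 74) and cytoplasmic ribosomal proteins (4 of 79) were close to it. Genes of the mesenchymal line list (1 of 16 in either direction) and of the interferon response (0 of 22) had few or no members past 2-fold between 1-1 and 2-1.

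The single genes that varied most were secreted or surface proteins. PLAU, which encodes urokinase, a protease of invading cells, stood at 13.8, 37.6 and 364 CPM, 25.4-fold higher in 2-1 than in 1-1. Its receptor PLAUR, looked up after these values were seen, stood at 37, 82 and 349 CPM. INHBA, the activin A subunit, stood at 163, 87.8 and 5.44 CPM. LGR6, a receptor for R-spondins, stood at 272, 32.6 and 3.08 CPM, and NKD1, an inhibitor of WNT signalling, at 140.5, 14.7 and 2.37 CPM. ITGB6, the integrin subunit of injured epithelia, stood at 65.7, 12.4 and 1.66 CPM. PLAU was highest in 2-1, while INHBA, LGR6, NKD1 and ITGB6 were highest in 1-1. The trypsinogen gene PRSS1 (109, 13.3 and 1.18 CPM) and the related pseudogene PRSS3P2 (196, 25.1 and 4.5 CPM) have near-identical copies, so their counts cannot be assigned with certainty.

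Each library also had genes of its own. Among 6996 genes with at least 20 CPM, 153 were at least 2-fold above both other libraries in 2-1, 47 in 1-1 and 1 in 1-3, and 51, 38 and 3 were 2-fold below both. EPHA2, an ephrin receptor, stood at 54 CPM in 2-1 against 3.94 in 1-1 and 4.62 in 1-3. PDK4, the kinase that shuts down pyruvate oxidation, was the lowest in 1-1 relative to the others, at 7.87 CPM against 56.6 and 75. SLC7A11, the cystine transporter, stood at 28.7 CPM in 1-1 against 116 and 152.5. KCTD15 was the gene that set 1-3 apart, at 75.4 CPM against 32.3 and 27.9. Few genes of 1-3 thus lay outside the range of the other two by 2-fold. Depth followed the same order, 1-1 the shallowest and 2-1 the deepest, and its part in these differences was not tested. The rank correlation of the difference between 1-1 and 2-1 with level was -0.07 across genes and with transcript length 0.09.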

How the data were processed

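RNA of 3 vehicle tumours was sequenced, and the deposited values are raw counts per gene symbol, whole numbers made by the authors. The submitters' processing notes name Trim Galore 0.5.0, STAR 2.6.0 and the build hg19. The program that counted reads, its annotation, strand and any removal of mouse reads are not given in the sources used here. Columns were joined to samples by the column name in the labels. The 9 columns of other libraries were not used, and 3 lines without a gene name held 0 counts. Of 25369 symbols, 24168 matched RefSeq.

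Counts were scaled with edgeR 4.0.16 (TMM) in R 4.3.3. Log2 CPM used a prior count of 2, and genes with a mean of at least 5 CPM were compared between libraries at 2-fold, with no p-values. The fold changes are on this log2 scale. The scripts were tested on simulated data. DESeq2 1.42.0 size factors, library totals, other filters, prior counts and folds, and leaving out each library were the alternatives. The 95% Wilson interval and the floor of 3 counts cover counting error only.

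Members and lists were chosen with earlier results of these data known. Genes were named by rule: the top 20 by CPM, the top 4 of each list with silent members of lists holding up to 6, a set of lineage genes, and the genes most and least variable or most apart in 1 library. CD163, TYROBP, TAP1, DCN, DPT, THY1, RPL17, RPL21, RPL31, RPS6, PLAUR and the chromosome 9 neighbours lie outside the rule and were chosen after their values were seen. Some genes are not reported here.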

Additional observations from a re-analysis of the deposited data

How the results depend on the processing

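The counts of genes past the fold depended on the filter and on the fold, in the order 1-1 above 1-3, 1-3 above 1-1, 1-1 above 2-1, 2-1 above 1-1, 1-3 above 2-1 and 2-1 above 1-3. At a mean of at least 20 CPM they were 58, 48, 178, 422, 59 and 172, without a filter 1123, 643, 1397, 1391, 695 and 983, at 1.5-fold 768, 753, 1168, 1879, 737 and 1309, and at 3-fold 51, 25, 163, 237, 48 and 102. At a mean of at least 1 CPM the counts that moved were 653, 389, 972, 489 and 695, without that of 2-1 above 1-1. The Spearman correlation of 1-1 with 2-1 was 0.876 at 20 CPM and 0.954 with no filter. Per length, 10 of the top 20 genes stayed in the top 20. Leaving out each library gave a coefficient of variation from 0.163 to 0.306, 13724 to 13902 genes with at least 1 CPM, and 7059 to 7247 genes without a count. DESeq2 size factors, library totals and prior counts changed none of these counts by over 1.5 times, and no scaling moved the median of all genes by over 0.1. No paired analysis was possible because a single group was described. With 3 libraries of 1 group no difference can be tested, and low genes are limited by depth.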

Other observations

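Some genes that dividing cells need were listed at next to nothing. TYMS, the thymidylate synthase, had 1, 7 and 1 counts, PLK1, a mitotic kinase, 6, 11 and 20, and PGAM1, a step of glycolysis, 5, 6 and 28. FDPS, of the cholesterol pathway, had 7, 7 and 27 counts, and the proteasome subunit PSMB7 had 3, 3 and 13. Members of the same lists, such as RRM1, TOP2A and ENO1, were abundant. These 5 genes were picked after their values were seen, and how the authors' counting treated overlapping genes and copies is not stated.

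On chromosome X, the 16 genes from PLCXD1 to XG, which lie in or at the border of the pseudoautosomal region shared with the other sex chromosome, had 0 counts in all 3 libraries. They include CD99, a surface antigen, and SLC25A6, a mitochondrial carrier that many tissues express. How the authors' mapping and counting treated a region shared by both sex chromosomes is not stated. The 0 counts therefore do not show that these genes were not expressed.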
